A study of Cucumis melo with 18 samples.

Results

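In the flesh of melon (Cucumis melo) fruits, 122 of the 22394 genes counted had their peak in the youngest fruits of the inbred line “B-14”. They were chosen from these same counts. A gene was kept when its mean in “1_14” was at least 10 CPM (the gene's count as a share of all counts in the library, scaled to a library total of 1000000) and at least 6 times the mean of each other group, with every library of “1_14” above every other library. These values chose the genes, so the difference of “1_14” from the other groups is given as a description and was not tested. RNA-seq had been performed on “B-14”, whose flesh turns orange on ripening, and on “B-6”, whose flesh turns white. Fruits were harvested on 3 days after pollination (DAP), at 10, 30 and 45 DAP, which gave the groups “1_14”, “3_14” and “4_14” for “B-14” and “1_6”, “3_6” and “4_6” for “B-6”, with 3 biological replicates each and 18 libraries in all. Per the study's methods, both inbred lines were grown in 1 greenhouse, 1 fruit was pollinated per plant, and fruits came from different plants. The study describes the tissue as flesh and the sample labels name it blade, and the gene table pairs no names with its identifiers, so markers of flesh, seed, placenta or leaf could not be read out.

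At about 10 DAP, a melon fruit is still green and growing, by cell division first and cell expansion later. Sugars, aroma compounds and, in orange lines, carotenoids build up during ripening. Genes for cell division, for building and loosening the cell wall and for the import of nutrients are typically active in the growing phase. Germin-like proteins, WRKY transcription factors and amino acid transporters, which are among the members described here, belong to large plant gene families.

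Total counts per library lay between 20651703 and 22675606, so that 3 counts, taken as the floor of detection in a library, stood for 0.132 to 0.145 CPM. Where none of a group's libraries exceeded 3 counts for a gene, the fold was computed against the mean of the group's floors and is a lower bound. The rule would have kept 144 genes in “1_6”, 14 in “4_14”, 3 in “3_6”, 3 in “4_6” and 1 in “3_14”. In “4_6”, 1 library was most often the highest for these genes. Among the 122 members, 77 (63.1%) had their highest “4_6” level in replicate 2, against 30.0% of all genes with at least 10 CPM in “1_14”.

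Together, the 122 genes made up 1.76%, 1.97% and 1.76% of all counts in the 3 libraries of “1_14”. In the other groups they held 0.0336% to 0.0375% in “3_14”, 0.0321% to 0.0375% in “4_14”, 0.175% to 0.199% in “1_6”, 0.0338% to 0.0375% in “3_6” and 0.0257% to 0.0416% in “4_6”. The young “B-6” fruits therefore held more of this RNA than any older fruit of either line. That they held less than the young “B-14” fruits follows from the rule. Fewer cells of a type and less RNA per cell cannot be told apart in these bulk samples. The members' means in “1_14” ran between 10.1 and 1480.1 CPM with a median of 48.5 CPM. Of the 122, 39 had at least 100 CPM there and 4 had at least 1000 CPM. The “1_14” mean was at least 12 times that of every other group in 47 genes, at least 50 times in 12 and at least 100 times in 5, with floors used where a group was not above them.

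**Figure D1:**
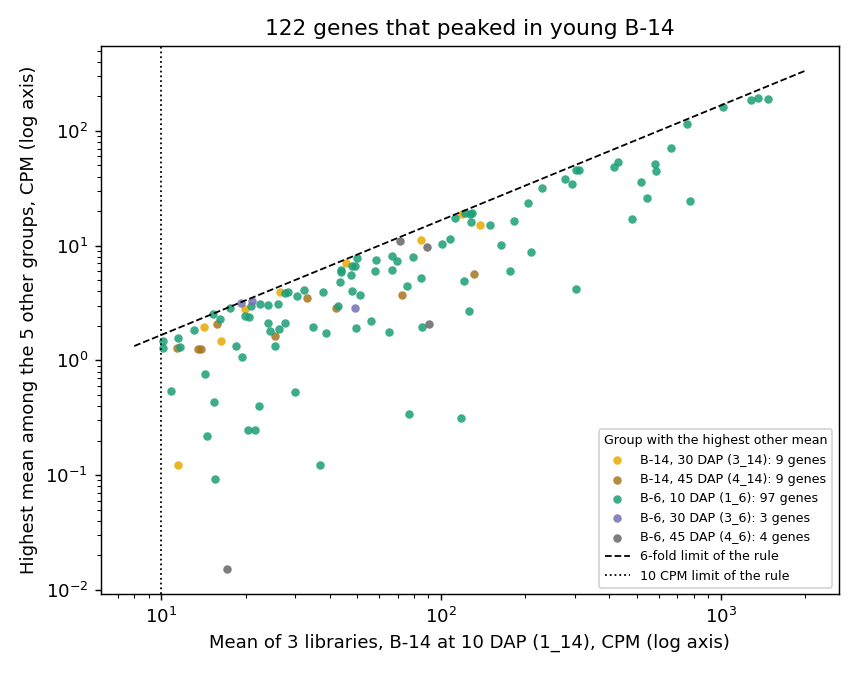
Mean level of each of the 122 genes in “1_14” (x axis, CPM, log axis) against its highest mean among the 5 other groups (y axis, CPM, log axis), 1 point per gene, coloured by the group with that highest other mean. The dashed line is the 6-fold limit and the dotted line the 10 CPM limit of the rule; 97 of the points carry the colour of “1_6”, and many lie close to the 6-fold line.

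The group nearest to “1_14” was most often the other young fruit. The highest other mean was that of “1_6” in 97 of the 122 genes (79.5%), against 30.2% of the 10873 genes with at least 10 CPM in “1_14”. For the rest it was an older group, “3_14” for 9 genes, “4_14” for 9, “3_6” for 3 and “4_6” for 4. The median member had 48.5 CPM in “1_14”, 0.607 CPM in “3_14”, 0.387 CPM in “4_14”, 3.78 CPM in “1_6”, 0.663 CPM in “3_6” and 0.400 CPM in “4_6”. In 76 genes the “1_6” mean was more than 2 times each of the 4 means at 30 and 45 DAP. The genes with all 3 libraries at or below the floor numbered 34 for “3_14”, 43 for “4_14”, 5 for “1_6”, 31 for “3_6” and 31 for “4_6”.

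**Figure D2:**
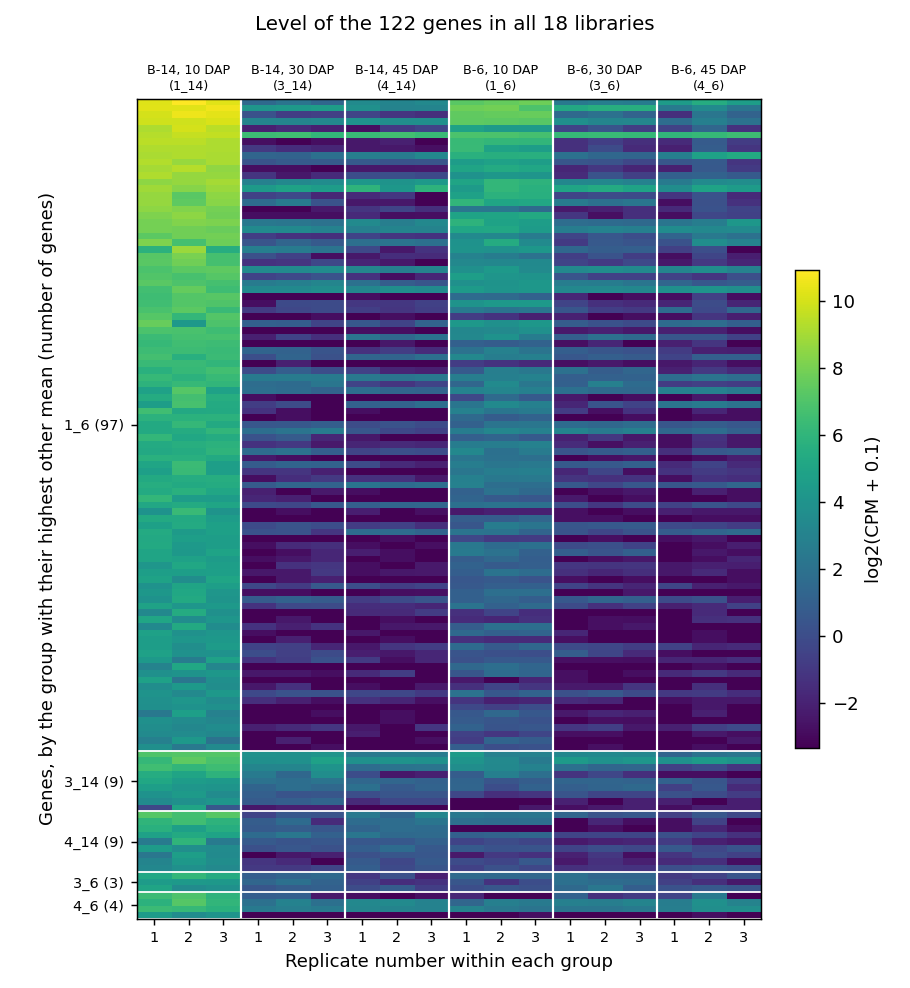
Level of the 122 genes (rows) in all 18 libraries (columns, 3 replicates per group, “B-14” left of “B-6”), as log2(CPM + 0.1). Rows are grouped by the group with the highest other mean and ordered by the “1_14” mean, and the columns of “1_6” are the brightest after those of “1_14” in the block of 97 genes.

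The most abundant members were shared by young fruits of both lines, at very different levels. MELO3C003230.2, which the files do not annotate, was the most abundant. It had 1222, 1961 and 1258 CPM in “1_14”, against 155, 192 and 219.9 CPM in “1_6”. It fell far lower with age, with 2.81, 4.43 and 2.63 CPM in “3_14” and 5.38, 6.68 and 6.16 CPM in “3_6”. No library at 30 DAP came near those of “1_14” or “1_6”. MELO3C010774.2 had 1257, 1249 and 1586 CPM in “1_14”, against 218, 243 and 123 CPM in “1_6”. It kept a higher level at 30 DAP, with 17.6, 21.1 and 24.8 CPM in “3_14” and 38.7, 49.6 and 48.2 CPM in “3_6”. Both genes were near the 6-fold limit against “1_6”, with ratios of 7.83 and 7.0.

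Several abundant members were near 0 in older “B-14” fruits. MELO3C012325.2 had 701, 699.6 and 590.0 CPM in “1_14”, against 78.3, 70.1 and 65.5 CPM in “1_6”. Its “3_14” and “4_14” libraries were all at or below the floor, so that “1_14” was at least 4803-fold and at least 4857-fold higher. MELO3C009162.2 had 520.2, 646 and 386 CPM in “1_14”, against 31.8, 42.2 and 34 CPM in “1_6”. It was likewise at or below the floor in all libraries of “3_14” and “4_14”, which puts “1_14” at least 3746-fold and at least 3787-fold higher. MELO3C007447.2, with 575, 1053 and 693 CPM in “1_14” and 30.1, 22 and 21.9 CPM in “1_6”, differed more between the young fruits of the lines, by 31.4-fold. MELO3C014182.2 differed nearly as much, by 28.2-fold, with 614, 415 and 417 CPM in “1_14” and 15.6, 18.7 and 16.9 CPM in “1_6”.

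Not every abundant member was low elsewhere. MELO3C006046.2 had 663, 822 and 789 CPM in “1_14” and remained between 67.1 and 121 CPM in the 15 other libraries. Its group means were 83.9 ± 13.1 CPM in “3_14”, 86.3 ± 8.75 CPM in “4_14”, 115 ± 7.45 CPM in “1_6”, 76.7 ± 4.16 CPM in “3_6” and 77.8 ± 13 CPM in “4_6” (SD, 3 libraries each). The 3 libraries of “1_6” were above all 12 libraries at 30 and 45 DAP, and the later levels were far from 0, unlike those of the members described before. MELO3C023539.2 averaged 581 ± 29.4 CPM in “1_14” and 51.5 ± 1.74 CPM in “1_6”, and its “4_6” libraries spread widely, with 7.01, 28.8 and 40.0 CPM.

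The study describes 6 of the 122 members by name, and their roles differ. CRG1 (MELO3C012305.2), a probable S-adenosylmethionine-dependent methyltransferase, an enzyme class that moves methyl groups onto other molecules, was the most abundant of them. It had 1025, 1507 and 1315 CPM in “1_14”, 1.1, 0.498 and 0.563 CPM in “3_14” and 0.668, 0.357 and 0.285 CPM in “4_14”. In “B-6” it had 175, 189 and 198 CPM in “1_6”, 2.88, 3.87 and 2.27 CPM in “3_6” and 0.275, 4.73 and 2.21 CPM in “4_6”. Within “B-14” the level in “1_14” was 1777 times that in “3_14”, the widest drop of the 6 between these groups.

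GLP5-1 (MELO3C004143.2), a germin-like protein, belongs to a family of extracellular cupin proteins. Its libraries held 976, 969 and 1116 CPM in “1_14”, 8.88, 9.0 and 10.1 CPM in “3_14” and 15.4, 13.1 and 13.9 CPM in “4_14”. In “B-6” they held 168, 161 and 151 CPM in “1_6”, 13.8, 9.05 and 9.29 CPM in “3_6” and 3.35, 7.05 and 4.1 CPM in “4_6”. All later libraries lay far below both young groups. In “4_14” every library was above every “4_6” library. LHT1 (MELO3C014857.2), a lysine and histidine transporter whose Arabidopsis namesake takes up amino acids, had 639, 424 and 568 CPM in “1_14”, against 23.6, 29 and 24.7 CPM in “1_6”. Its difference between the young fruits, 21.1-fold, was the widest of the 6, and it stayed between 0.353 and 1.64 CPM in the 12 libraries at 30 and 45 DAP.

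WRKY15 (MELO3C007576.2), a probable transcription factor of the WRKY family, had 249, 305 and 282 CPM in “1_14”, against 60.5, 30.2 and 24.5 CPM in “1_6”. Replicate 1 of “1_6” was the high one there. AATP1 (MELO3C021479.2), described as a mitochondrial AAA-type ATPase, had 247, 234 and 208 CPM in “1_14”, against 34.8, 36.9 and 23 CPM in “1_6”. Both genes kept a level of several CPM at 30 and 45 DAP in both lines. TTL3 (MELO3C010417.2), a thioredoxin-like protein with tetratricopeptide repeats that in Arabidopsis takes part in brassinosteroid signalling, was the one of the 6 whose highest other group was “3_14”. It had 129, 142 and 141 CPM in “1_14”, 15, 14 and 16.4 CPM in “3_14” and 5.26, 6.34 and 6.12 CPM in “4_14”, with 21.7, 7.71 and 7.64 CPM in “1_6”. Without replicate 1, the young “B-6” fruits were below “B-14” fruits at 30 DAP.

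**Figure D3:**
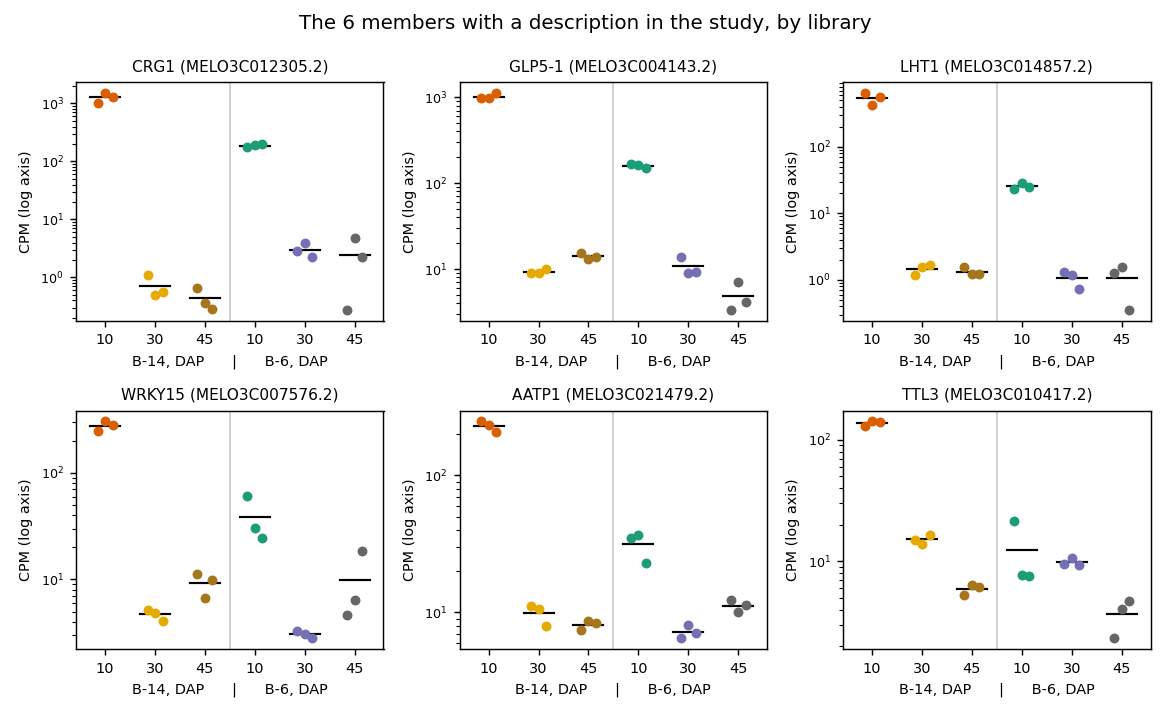
CPM (log axis) of the 6 members that the study describes, in each library at 10, 30 and 45 DAP, with “B-14” left of the grey line and “B-6” right of it; black bars are means of 3 libraries. In all 6 panels the 3 “1_14” points lie above all others, as the rule requires, and in TTL3 the “3_14” points lie above the “1_6” mean.

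A few members were barely detected outside “1_14”. MELO3C022604.2 had 22.7, 12.3 and 16.7 CPM in “1_14” and at most 1 count in any of the 15 other libraries, which makes “1_14” at least 121-fold higher than each other group. MELO3C026923.2 had 15.3, 79.9 and 15.9 CPM in “1_14” and at most 3 counts elsewhere, a difference of at least 261-fold. MELO3C010172.2 also had at most 3 counts elsewhere, with 0.721, 32.4 and 1.37 CPM in “1_14”. These were the 3 genes at or below the floor in all 5 other groups, and in the last of them 1 library held nearly all of the signal. MELO3C021643.2 had 146, 68.2 and 141 CPM in “1_14”, against 0.479, 0.323 and 0.136 CPM in “1_6”, a 378-fold difference, the widest against a highest other group that was above the floor. MELO3C020971.2 had 82.5, 80.8 and 66.9 CPM in “1_14”, against 0.479, 0.323 and 0.226 CPM in “1_6”, which is 224-fold. MELO3C012398.2 had 28.3, 4.73 and 13.7 CPM in “1_14” and was at least 109.7-fold higher than each other group. A further 17 genes were at or below the floor in the 4 later groups and above it in “1_6”, counting MELO3C012398.2, and MELO3C026158.2 with 57.5, 54.4 and 56.6 CPM in “1_14” and 2.78, 1.66 and 2.12 CPM in “1_6” was one of them.

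A smaller set was low in “B-6” at every stage. MELO3C032763.2 had 52.9, 26 and 47.1 CPM in “1_14”, 1.52, 1.72 and 1.36 CPM in “3_14” and 2.32, 3.26 and 3.04 CPM in “4_14”. In “B-6” it had 0 counts in all 3 libraries of “1_6” and at most 0.182 CPM in the other 6. MELO3C000093.2, singled out after its values were seen, had 11.3, 14 and 17.4 CPM in “1_14”, 1.61, 1.9 and 2.39 CPM in “3_14” and 0.223, 0.714 and 0.712 CPM in “4_14”, and at most 3 counts in every “B-6” library. Against “1_6”, “1_14” was at least 302-fold higher for MELO3C032763.2 and at least 102-fold higher for MELO3C000093.2. MELO3C007961.2, singled out likewise, had 85.7, 126 and 59.1 CPM in “1_14” and 0.192, 0 and 0 CPM in “1_6”, but reached 0.688, 5.6 and 0 CPM in “4_6”. Its older fruits varied from library to library, and 1 of them, replicate 2 of “4_6”, set its highest other mean.

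In 25 members the highest other group was an older one. TTL3 was among them, and the others named here were singled out after their values were seen. MELO3C008307.2 kept the highest level at later stages, with 19 ± 8.7 CPM in “3_14”, 14.8 ± 1.13 CPM in “4_14”, 18.2 ± 3.65 CPM in “3_6” and 17.5 ± 3.88 CPM in “4_6” (SD, 3 libraries each). Its young fruits had 119 ± 48.8 CPM in “1_14” and 10.8 ± 5.25 CPM in “1_6”. The libraries of “1_6” overlapped with those of the older groups, and neither “3_6” nor “4_6” was called against “1_6”. MELO3C018967.2 had 3.16, 3.3 and 4.65 CPM in “4_14”, against 0.0458, 0.592 and 0 CPM in “4_6”. It was thus higher in older “B-14” than in older “B-6” fruits, and its “1_14” libraries held 64.6, 93.2 and 60.0 CPM. MELO3C010177.2 was uneven at 30 DAP, with 5.85, 2.58 and 12.6 CPM in “3_14”, and had 0.936, 0.0892 and 0.142 CPM in “4_14”, where replicate 1 was above the floor and replicates 2 and 3 were not. MELO3C016703.2 had 9.27, 8.57 and 8.02 CPM in “4_14”, against 6.74, 13.2 and 13.3 CPM in “4_6”, its highest other group, and replicate 1 of “4_6” was below all libraries of “4_14”.

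The libraries of “1_14” differed widely from each other in some members. The rule used their mean, so that a gene could pass through 1 high library, and the spread is given as a description. The highest “1_14” library was more than 2 times the lowest in 42 of the 122 members (34.4%) and more than 4 times in 14. Of all genes with at least 10 CPM in “1_14”, 6.36% were more than 2 times apart. Replicate 2 was more than 1.5 times both other libraries in 27 members (22.1%, against 3.79% of those genes). It was under both by more than 1.5 times in 14 (11.5%, against 3.73%). Replicate 1 was over both in 13 (10.7%, against 1.56%) and under both in 6 (4.92%, against 1.47%). For replicate 3 these numbers were 0 and 2. MELO3C010172.2 was the extreme, with the values given above. MELO3C014076.2 had 5.54, 65.3 and 5.85 CPM in “1_14”. MELO3C002853.2 went the other way in the same library, with 194, 19.7 and 124 CPM. At the even end, MELO3C012108.2 had 593, 595 and 575 CPM, MELO3C026157.2 25.9, 25.4 and 26.9 CPM and MELO3C026158.2 the values given above. MELO3C026157.2 and MELO3C026158.2 carry adjacent identifier numbers. Leaving out replicate 2 of “1_14”, the rule kept 118 genes.

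**Figure D4:**
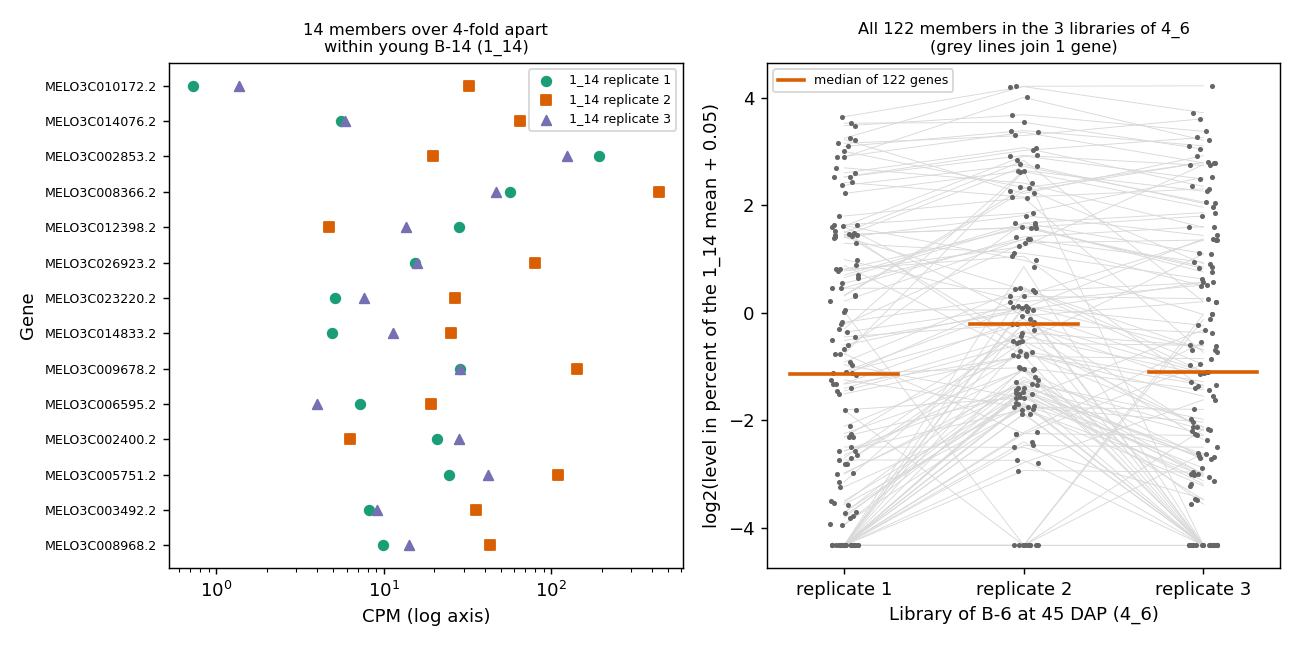
Left, CPM (log axis) of the 14 members whose “1_14” libraries lay more than 4-fold apart, with 1 symbol per replicate; replicate 2 (squares) is at an end of the range in all of them. Right, level of each of the 122 members in the 3 libraries of “4_6”, as log2 of the percent of its “1_14” mean plus 0.05, with orange bars at the medians, which are highest in replicate 2.

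Replicate 2 of “4_6” most often had the highest level of the members among the 3 libraries of that group. The members' summed level was 257, 416 and 362 CPM in replicates 1, 2 and 3. By that sum, replicate 3 was nearer to replicate 2 than to replicate 1. The median level in percent of the “1_14” mean was 0.404%, 0.814% and 0.418% in replicates 1, 2 and 3 of “4_6”. The 144 genes that the same rule keeps for “1_6” behaved otherwise, since 20, 33 and 83 of them were highest in replicates 1, 2 and 3 of “4_6”. The part of this library in the values of “4_6” was not tested, and counts without it are given beside the comparisons that use it.

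At the limits of the rule, the members just above 6-fold were MELO3C011424.2 (6.0), MELO3C003881.2 (6.12) and MELO3C003492.2 (6.18). The genes just below it were MELO3C015962.2 (5.98), MELO3C005709.2 (5.90) and MELO3C010700.2 (5.88). The members just above 10 CPM were MELO3C002389.2 (10.1 CPM) and MELO3C006595.2 (10.2 CPM), and the genes just below it were MELO3C017743.2 (9.07 CPM) and MELO3C023484.2 (8.91 CPM). A further 8 genes met the level and the fold but had a “1_14” library that was not above every other library.

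Genes listed by the study as lower in older “B-14” fruits were compared with the members. Its lists of the most significant genes give a p-value and a direction, and no fold change. Of the 12 genes listed there as lower in “4_14” versus “1_14”, 5 were members, as were 3 of the 13 listed for “3_14” versus “1_14”. The study chose these lists on the same libraries, so the overlap is no independent evidence. Others on these lists were high in both young fruits. XTH22 (MELO3C017480.2), a xyloglucan endotransglucosylase that remodels the cell wall, averaged 1935 CPM in “1_14” and 1121 CPM in “1_6”. RBOHB (MELO3C015312.2), an oxidase that makes reactive oxygen in defence, averaged 152 CPM in “1_14” and 185 CPM in “1_6”. RNS1 (MELO3C012099.2), a ribonuclease, came nearest to the rule, at 5.57 times its “1_6” mean. Of 3 further lists from the study, the 41 genes of its main list of transcription factors, which also holds a magnesium chelatase subunit and does not hold WRKY15, included no member, and 10 of them had their highest mean in “1_14”. MELO3C017743.2, described there as a probable WRKY transcription factor, missed the rule only by its level. It had 9.07 CPM, just below the limit of 10 CPM, and 6.42 times its highest other mean, that of “4_14”. The 27 carotenoid genes and 42 porphyrin and chlorophyll genes used here included no member either, and 0 and 7 of them had their highest mean in “1_14”. The list of carotenoid genes is shorter than the set the study counts, so the rest of that set was not analysed here.

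The members were next compared between groups that the rule had not set against each other, to see whether they also changed with age in “B-6”. They were mostly lower in older “B-6” fruits. In “3_6” versus “1_6”, 85 members fell and 2 rose, at an adjusted p of at most 0.05 and at least 2-fold by edgeR's quasi-likelihood test. Of all 16478 genes tested, 25.1% fell and 17.5% rose. In “4_6” versus “1_6”, 87 members fell and 0 rose, against 28.2% and 19.6% of 16547 genes. 17 of the 122 members did not pass the filter on low counts in each of these comparisons, and those that passed could do so through the young group. The counts were also made where every member was tested, with all 18 libraries in 1 fit. That filter took in “1_14”, where the rule asks for at least 10 CPM, so members could pass through the group that chose them. The other genes tested were not chosen on “1_14”. This limit holds for every count from that fit, here and below. With all 18 libraries in 1 fit, 91 of 122 members fell and 3 rose in “3_6” versus “1_6” (25.1% and 17.4% of all genes), and 95 fell and 3 rose in “4_6” versus “1_6” (28.4% and 19.4%). By the unadjusted p and by DESeq2, 0 members rose in “4_6” versus “1_6”. Without replicate 2 of “4_6”, 89 fell there.

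Among the members that fell in “B-6”, MELO3C012325.2 had 0.288, 0.533 and 0.272 CPM in “3_6”, against 78.3, 70.1 and 65.5 CPM in “1_6”. Its log2 fold change was -7.75 with a standard error of 0.169 and an adjusted p of 1.15e-07 by edgeR's quasi-likelihood test. CRG1 fell by a log2 value of 6.13 in the same comparison, and MELO3C009162.2 by 7.29, with 0.192, 0.387 and 0.181 CPM in “3_6” and 31.8, 42.2 and 34 CPM in “1_6”. In “4_6” versus “1_6”, GLP5-1 (MELO3C004143.2) fell by 5.23 and MELO3C014182.2 by 3.36 on the log2 scale. MELO3C002759.2 was at or below the floor in “4_6”, against 9.53, 10.5 and 14.3 CPM in “1_6”, which is at least 84.5-fold lower. LHT1, WRKY15 and AATP1 also fell in both comparisons. The groups did not overlap for any of the genes named here. TTL3 differed from them, with a log2 value of -0.45 in “3_6” versus “1_6” and an adjusted p of 0.272 by edgeR. Without replicate 1 of “1_6” that value was 0.12. In “4_6” versus “1_6” TTL3 fell by 1.88.

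The 2 members that rose in “3_6” versus “1_6” were both low in “B-6”. MELO3C002090.2 had 3.8, 3.2 and 2.95 CPM in “3_6”, against 1.29, 0.323 and 0.949 CPM in “1_6”. The log2 fold change was 1.80 with a standard error of 0.405 and an adjusted p of 0.00401 by edgeR. MELO3C003881.2 had 2.79, 4.84 and 1.81 CPM in “3_6”, against 0.958, 1.29 and 1.04 CPM in “1_6”. Its log2 value was 1.35 with a standard error of 0.394 and an adjusted p of 0.0144 by edgeR, and without replicate 2 of “3_6”, the highest library, it was 0.91 with an adjusted p of 0.0516.

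**Figure D5:**
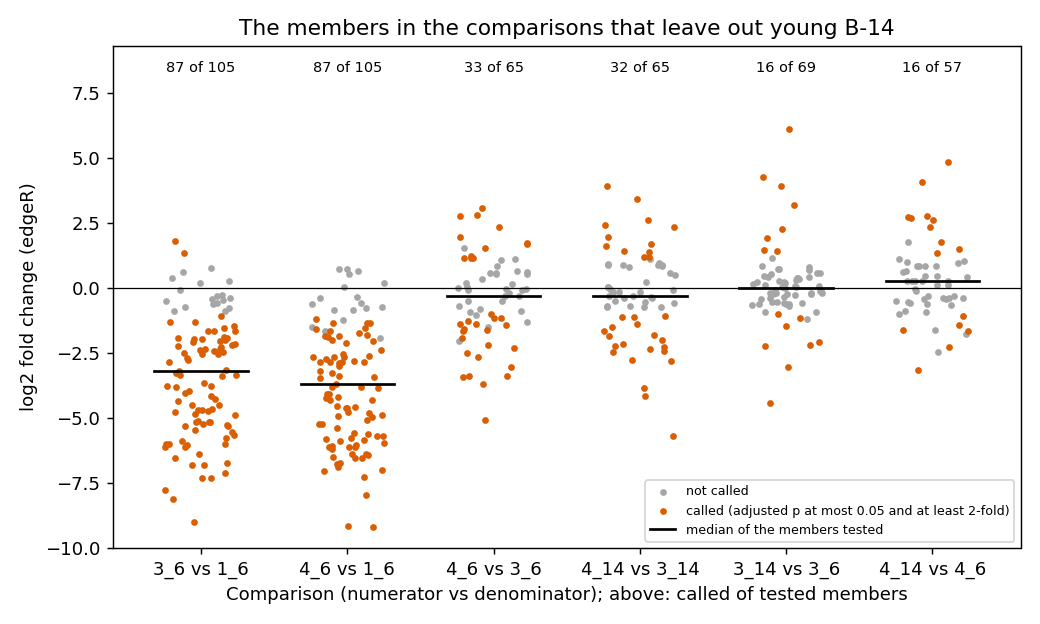
log2 fold changes by edgeR (y axis) of the members tested in the 6 comparisons that leave out “1_14”, named as numerator vs denominator, 1 point per gene; orange points were called, grey points were not, and black bars are medians over the members tested. The numbers above give called of tested members, with 87 of 105 in each comparison of an older with the young “B-6” group.

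Between 30 and 45 DAP, some members rose and others fell in each line. In “4_14” versus “3_14”, 12 members rose and 20 fell, against 7.83% and 11.4% of 15600 genes. In “4_6” versus “3_6”, 12 rose and 21 fell, against 12.1% and 15.1% of 15517 genes. Only 65 of the 122 members passed the filter in each, and the other 57 were too low at both stages. With all 18 libraries in 1 fit and all 122 members tested, 13 rose and 23 fell in “4_14” versus “3_14” (7.43% and 11.8% of all genes), and 13 rose and 23 fell in “4_6” versus “3_6” (11.3% and 15.2%). These counts are 10.7% and 18.9% of the members in each line, which in “B-6” is near the share of all genes. Without replicate 2 of “4_6”, 10 rose and 26 fell there.

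In “B-14”, TTL3 went on falling after 30 DAP. It had 5.26, 6.34 and 6.12 CPM in “4_14”, against 15, 14 and 16.4 CPM in “3_14”. The log2 fold change was -1.37 with a standard error of 0.123 and an adjusted p of 0.000312 by edgeR. MELO3C012114.2 fell by 2.75 on the log2 scale, with 0.668, 0.357 and 0.617 CPM in “4_14” and 3.27, 3.08 and 4.73 CPM in “3_14”. MELO3C002090.2 fell by 2.82. In the other direction, MELO3C002607.2 had 4.41, 2.77 and 4.22 CPM in “4_14”, against 0.138, 0.633 and 0.281 CPM in “3_14”. Its log2 value was 3.41 with a standard error of 0.492 and an adjusted p of 0.00177 by edgeR. MELO3C003230.2, the most abundant member, rose by 1.60 on the log2 scale, with 11.1, 8.66 and 10.3 CPM in “4_14” and 2.81, 4.43 and 2.63 CPM in “3_14”. MELO3C014833.2 had 1.07, 1.29 and 1.38 CPM in “4_14” and was at or below the floor in “3_14”, so it was at least 9.02-fold higher. Even the genes that rose stayed far below their “1_14” level, which the rule requires.

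In “B-6”, MELO3C003230.2 rose as well, with 22.6, 45 and 24.3 CPM in “4_6”, against 5.38, 6.68 and 6.16 CPM in “3_6”. The log2 fold change was 2.34 with a standard error of 0.279 and an adjusted p of 0.000474 by edgeR. MELO3C005751.2 had 4.36, 5.96 and 4.01 CPM in “4_6” and 0.192, 1.21 and 0.635 CPM in “3_6”, a log2 value of 2.81. MELO3C002111.2 rose by 1.71, and WRKY15 (MELO3C007576.2) by 1.69 with 4.63, 6.42 and 18.7 CPM in “4_6” and 3.27, 3.1 and 2.81 CPM in “3_6”. All these groups were apart, with the highest “3_6” library below the lowest “4_6” library. MELO3C010774.2 fell by 2.67, with 5.64, 11.1 and 4.63 CPM in “4_6” and 38.7, 49.6 and 48.2 CPM in “3_6”. MELO3C002090.2 fell by 3.42. MELO3C025773.2 was at or below the floor in “4_6”, against 1.88, 1.26 and 1.99 CPM in “3_6”, which is at least 12.6-fold lower.

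The lines were then compared with each other within each later stage. In “3_14” versus “3_6”, 8 members were higher and 8 lower, against 2.88% and 2.7% of 15501 genes, with 69 members tested. In “4_14” versus “4_6”, 10 were higher and 6 lower, against 4.25% and 3.95% of 15382 genes, with 57 tested. With all 18 libraries in 1 fit and all 122 members tested, 8 were higher and 6 lower at 30 DAP (2.23% and 2.19% of all genes), and 12 higher and 14 lower at 45 DAP (4.95% and 4.89%). These counts moved when single libraries were left out. The shares of all genes called in those runs are not given, so the moves cannot be read as particular to the members. At 30 DAP 10 members were called without replicate 3 of “3_6”. At 45 DAP 6, 4 and 8 were called without replicate 1 of “4_14”, replicate 3 of “4_14” and replicate 2 of “4_6”.

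At 30 DAP, MELO3C002465.2 had 5.62, 5.97 and 5.48 CPM in “3_14”, against 1.88, 2.08 and 2.13 CPM in “3_6”. The log2 fold change was 1.44 with a standard error of 0.141 and an adjusted p of 0.00147 by edgeR. MELO3C032763.2 had at most 1 count in each “3_6” library and 1.52, 1.72 and 1.36 CPM in “3_14”, a difference of at least 10.8-fold. MELO3C014076.2 had 1.56, 1.22 and 1.36 CPM in “3_14” and 0.0962, 0.145 and 0.181 CPM in “3_6”, and this call was lost with all 18 libraries in 1 fit, at an adjusted p of 0.0936 by edgeR. Lower in “3_14” were MELO3C010774.2, by 1.14 on the log2 scale, MELO3C002607.2, by 3.04, and CRG1 (MELO3C012305.2), by 2.09. MELO3C025773.2 had 0, 0.0452 and 0.188 CPM in “3_14” and 1.88, 1.26 and 1.99 CPM in “3_6”. Its groups did not overlap, and it was also called lower.

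At 45 DAP, MELO3C032763.2 had 2.32, 3.26 and 3.04 CPM in “4_14”, against 0.0458, 0.182 and 0.0441 CPM in “4_6”. Its log2 fold change was 4.86 with a standard error of 0.486 and an adjusted p of 0.00195 by edgeR. MELO3C002495.2 had 3.16, 4.28 and 4.46 CPM in “4_14” and 0.550, 0.819 and 0.353 CPM in “4_6”, a log2 value of 2.73. It was also higher at 30 DAP, by 1.92. MELO3C008224.2, singled out after its values were seen, was higher in “B-14” by 2.26 at 30 DAP and by 2.36 at 45 DAP. These genes thus kept a line difference in older fruits at levels of a few CPM. GLP5-1 (MELO3C004143.2) had a log2 value of 1.51 with a standard error of 0.273 and an adjusted p of 0.0139 by edgeR, and the adjusted p was 0.0530 and 0.0512 without replicates 1 and 3 of “4_14”. MELO3C006062.2 was lower, with 0.624, 0.357 and 0.332 CPM in “4_14” and 2.34, 5.32 and 3.92 CPM in “4_6”, a log2 value of -3.16. MELO3C003230.2 was lower by 1.65 and MELO3C009678.2 by 1.41. CRG1 (MELO3C012305.2), with a log2 value of -2.47 and an adjusted p of 0.104 by edgeR, was not called at this stage, and its “4_6” libraries spread between 0.275 and 4.73 CPM.

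Whether the change between 30 and 45 DAP differed between the lines was tested as an interaction over 12 libraries. It differed in 5 of the 77 members tested, 4 with a higher and 1 with a lower log2 change in “B-14” than in “B-6”, against 3.38% and 4.38% of 16104 genes, so the members' share was near that of all genes. MELO3C002607.2 had the widest difference. It was higher in “4_14” than in “3_14” and lower in “4_6”, with 1.33, 1.32 and 0.573 CPM, than in “3_6”, with 1.92, 3.83 and 2.81 CPM. The interaction was a log2 value of 4.84 with a standard error of 0.669 and an adjusted p of 0.00145 by edgeR's quasi-likelihood test. GLP5-1 (MELO3C004143.2) was next by adjusted p, with 1.76 and an adjusted p of 0.00813 by edgeR. WRKY15 (MELO3C007576.2), CRG1 (MELO3C012305.2), LHT1 (MELO3C014857.2) and TTL3 (MELO3C010417.2) had adjusted p-values between 0.457 and 0.908 by edgeR, which does not show that their change was the same in both lines. For AATP1 (MELO3C021479.2) the interaction was a log2 value of -0.92 with an adjusted p of 0.0142 by edgeR, short of the 2-fold limit of a call. Without replicate 2 of “3_14” 3 members were called, without replicate 3 of “3_14” 10, and without replicate 1 of “4_6” 11. The shares of all genes called in these runs are not given either.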

How the data were processed

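RNA-seq libraries had been made from the flesh of both inbred lines at the 3 stages, with 3 biological replicates per group and 18 libraries. The authors cleaned the paired-end reads with Trimmomatic, mapped them with HISAT2 and deposited unnormalized counts per gene; program versions, genome build, annotation version and counting program are not given in the sources used here. None of the 22394 MELO3C identifiers was found in the RefSeq table at hand, so symbols are those of the study, and positions and sequences were not used. Groups were taken from the sample labels.

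CPM were computed on column totals with Python 3.11.15 and pandas 2.3.3. Each pair of groups was fitted on its own 6 libraries with edgeR 4.0.16 in R 4.3.3 (TMM factors, filterByExpr, quasi-likelihood F test), the interaction on 12. A call needed a Benjamini-Hochberg adjusted p of at most 0.05 over all genes tested and at least 2-fold; the study's threshold used the unadjusted p, which was tried as an alternative. Further alternatives were another scaling (RLE factors, or library size alone), DESeq2 1.42.0, 2 other count filters, a single fit of all 18 libraries, a block for the replicate number and leaving out each library. The fits of “3_6” versus “1_6” and of the interaction were also run on simulated data. Changes were placed there only in genes with higher counts, so those runs do not cover members near the floor.

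The members, gene lists and tests were chosen with earlier results of these data known. Named genes are the 12 with the highest “1_14” mean, the 5 with the largest ratio to the highest other group, those the study describes, up to 3 per direction and comparison by adjusted p, those at the limits, and the 3 most and 3 least even within “1_14”; genes outside this rule are said to be singled out. Replicates of a group differed in 27.7% to 64.7% of genes beyond the limit that binomial sampling exceeds in 5%, so no library was a repeat of another. Same-numbered libraries deviated together in “4_14” versus “3_14” (correlations of 0.15, 0.34 and 0.50 over 13407 genes), though fruits came from different plants. In each of the other 5 pairs of groups at least 1 of the 3 correlations was negative, with values between -0.37 and 0.27. No pair with “1_14” was checked.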

Additional observations from a re-analysis of the deposited data

Results flagged for a closer look

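The change between 30 and 45 DAP differed between the lines in 5 of the 77 members tested (6.49%), against 7.76% of all genes tested. The interaction is given as a log2 value of “B-14” minus “B-6”, by edgeR's quasi-likelihood test. For MELO3C002607.2 it was 4.84 with an adjusted p of 0.00145 by edgeR. All 3 libraries of “4_14” were above those of “3_14”, and all 3 of “4_6” were below those of “3_6”. For GLP5-1 (MELO3C004143.2) it was 1.76 with an adjusted p of 0.00813 by edgeR, with “4_14” above “3_14” and “4_6” below “3_6” in all libraries. For MELO3C006208.2 it was 3.28 with an adjusted p of 0.0155 by edgeR, on levels of at most 9.01 CPM in the later groups. For MELO3C010774.2, which was lower at 45 DAP in both lines, it was 1.63 with an adjusted p of 0.0278 by edgeR. For MELO3C009678.2 it was -1.30 with an adjusted p of 0.0335 by edgeR, and this call was lost with all 18 libraries in 1 fit, at an adjusted p of 0.257 by edgeR, and without any 1 of 7 of the 12 libraries, at adjusted p-values of 0.0646 to 0.0853 by edgeR. Its libraries held 3.48, 2.45 and 2.18 CPM in “4_14” and 3.64, 3.21 and 2.20 CPM in “3_14”, and 7.66, 7.74 and 5.47 CPM in “4_6” and 3.80, 2.86 and 2.67 CPM in “3_6”.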

How the results depend on the processing

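A filter of 10 counts in each library kept fewer members to test. With it, 37 of 53 were called in “3_6” versus “1_6” (69.8%, against 35.3% of all genes). In “4_6” versus “1_6” it was 25 of 38 (65.8%, against 39.6%), and in “4_6” versus “3_6” 18 of 33 (54.5%, against 23.4%). In “4_14” versus “3_14” it was 12 of 39 (30.8%, against 15.8%). Between the lines it was 7 of 46 in “3_14” versus “3_6” (15.2%, against 4.3%) and 8 of 35 in “4_14” versus “4_6” (22.9%, against 6.8%). All 18 libraries in 1 fit gave 26 members in “4_14” versus “4_6” (21.3%, against 9.84% of all genes). The interaction was called in 8 members by DESeq2 (10.4% of those tested, against 9.71% of all genes). By the unadjusted p it was called in 12 (15.6%, against 12.1%). A fold limit of 3 kept 300 genes and one of 12 kept 47. With single libraries left out, the counts in the 6 pairs, in the same order, were 86 to 88, 85 to 89, 26 to 36, 24 to 31, 10 to 18 and 4 to 20, and the interaction count was 3 to 11. The rule, applied anew each time, kept 118 to 128 genes, which were not all the same genes. Shares of all genes are not given for the runs without single libraries, here or above. With the replicate number as a block, 87, 89, 34, 29, 11 and 11 members were called in the 6 pairs and 5 in the interaction, each within 1.5 times the count without it. Of all genes, the block called 42.4%, 47.6%, 26.4%, 19.4%, 3.64% and 7.58% in the 6 pairs and 7.97% in the interaction. TTL3 (MELO3C010417.2) changed sign in “3_6” versus “1_6”, at 0.12 without replicate 1 of “1_6”, and ranged between -0.68 and 0.12 with single libraries left out. Of 46 named log2 values, 40 kept their direction and their side of the threshold in every alternative run that tested the gene. Runs whose count filter left a gene out are not counted for it. Library size alone in place of TMM moved the median log2 of all genes to 0.18 in “3_6” versus “1_6” and to 0.19 in “4_6” versus “1_6”, against 0.02 and 0.02 with TMM, far less than the changes of the members named there. For a member near the floor, depth limits what can be seen, and no difference was detectable between groups at or below it.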
